A study of Rattus norvegicus with 8 samples.

Results

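Oxt and Avp encode the precursors of oxytocin and vasopressin, and their transcripts were followed in the hypothalamus of 8 lactating Wistar rats. The members were the probes whose gene name on the array is Oxt or Avp. These were 2 of 30367 probes, printed as 1 spot for Oxt and 10 spots for Avp on every array, out of 42877 spots. The members are 2 of 26269 gene names on the array. The study set 4 control dams against 4 dams exposed to TCDD, a dioxin that binds and activates the aryl hydrocarbon receptor (AhR), all sampled on postpartum day 7. The sources used here give no dose, route or time of exposure, no vehicle, and no age of the dams. Each dam gave 1 array in 1 colour. The hypothalamus was taken as a whole tissue, so fewer cells of a type and less RNA per cell cannot be told apart.

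Oxytocin and vasopressin are short peptides cut from larger precursors that also carry a neurophysin, the protein that packs the hormone in its secretory granule. Most of both hormones comes from magnocellular neurons of the paraventricular and supraoptic nuclei, each cell making mainly one of the hormones and sending its axon to the posterior pituitary. Oxytocin released on suckling contracts the mammary gland and ejects milk, and vasopressin makes the kidney retain water. Smaller paraventricular neurons send both peptides into the brain, and the suprachiasmatic clock also expresses Avp. The genes lie side by side, tail to tail, and are thought to descend from a single ancestor. They share a nearly identical stretch in the part that encodes neurophysin.

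The probe sequences show which part of each transcript was measured. Both are printed 5′ to 3′ as in the scanner files, and capitals mark the longest run of letters that they share, which was 6 of 60 bases.
Oxt probe A_64_P060262: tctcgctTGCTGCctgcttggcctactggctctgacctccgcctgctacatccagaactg
Avp probe A_44_P254016: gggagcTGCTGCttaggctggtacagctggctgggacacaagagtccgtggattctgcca
The Oxt probe lies at chr3:118194269-118194328 on the plus strand of rn4 and starts at base 50 of its mRNA record. The Avp probe lies at chr3:118205082-118205141 on the minus strand and starts at base 450 of its record. By their letters both lie in coding sequence. The Oxt probe covers the signal peptide and the start of the hormone. The Avp probe covers the part for copeptin, a tail that the oxytocin precursor lacks. Between them lie 10753 bases. With the 30366 other probes of the array the longest shared run was 12 bases for either probe, so no other probe on the array held either sequence.

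Both genes were well above background on all 8 arrays, and 0 spots were saturated on any array. All of their spots were bright enough to be read from the scanner's low-gain scan and scaled up, as were between 1.47% and 2.46% of spots on an array. The value used to scale an array, the 75th percentile of its signal, ranged from 756 to 1077 intensity units. It was lowest on replicate 1 of both groups, at 756 in control and 806 in TCDD, where repeat spots also varied most. These are the arrays at position 1 of their slides. Control arrays lay on slide 1 and TCDD arrays on slide 2, each slide with a scan time of its own, so slide and exposure cannot be told apart. Among markers of the tissue, Pmch, Hcrt, Pomc and Npy were well above background on all 8 arrays. So were 5 of 8 transcription factors of paraventricular and supraoptic neurons, Sim1, Pou3f2, Arnt2, Rora and Nr3c1, while Nhlh2 was on 7, Esr2 on 1 of either group and Otp on 0. Rora is also counted among the thalamus markers below.

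Avp varied widely among dams and was lower on average in TCDD dams, by less than the range within either group (1.27 in control, 1.05 in TCDD). Its log2 signal, relative to the array's 75th percentile, was 5.72, 6.01, 6.99 and 6.35 in control replicates 1 to 4. In TCDD replicates 1 to 4 it was 5.24, 6.29, 5.69 and 5.66. Control replicate 3 was the highest of all arrays and TCDD replicate 1 the lowest, and the groups overlapped, since TCDD replicate 2 lay above control replicates 1 and 2. Control dams averaged 6.27 ± 0.55 and TCDD dams 5.72 ± 0.43 (SD, n = 4 in each group). The log2 fold change, TCDD minus control, was -0.55 (SE 0.30), a 0.684-fold level, with a 95% interval from -1.24 to 0.14 on the log2 scale. The difference did not pass limma over all 16574 genes tested (adjusted p = 0.591), nor a 2-sided exact permutation test with all 70 ways to assign the dams (p = 0.143).

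Oxt followed a similar order over a narrower range. Its log2 signal was 5.70, 5.89, 6.38 and 5.70 in control replicates 1 to 4, and 5.50, 5.89, 5.81 and 5.58 in TCDD replicates 1 to 4. Control replicate 3 was again the highest and TCDD replicate 1 the lowest, while the other 6 arrays lay between 5.58 and 5.89 with the groups intermixed. Control dams averaged 5.92 ± 0.32 and TCDD dams 5.70 ± 0.19 (SD, n = 4 in each group). The log2 fold change was -0.22 (SE 0.16), a 0.857-fold level, with a 95% interval from -0.60 to 0.15 on the log2 scale (limma adjusted p = 0.715; exact permutation p = 0.286). Thus 0 of the 2 genes passed, where 0.0241% of the genes tested did (4 of 16574, at an adjusted p under 0.05). Those 4 were Wdr96, RGD1565030, A_64_P150579 and A_64_P057241. Both members were lower in TCDD dams, as 48.5% of genes were at any p. Neither reached an unadjusted p under 0.05, as 2.82% of genes did in the lower direction.

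**Figure D1:**
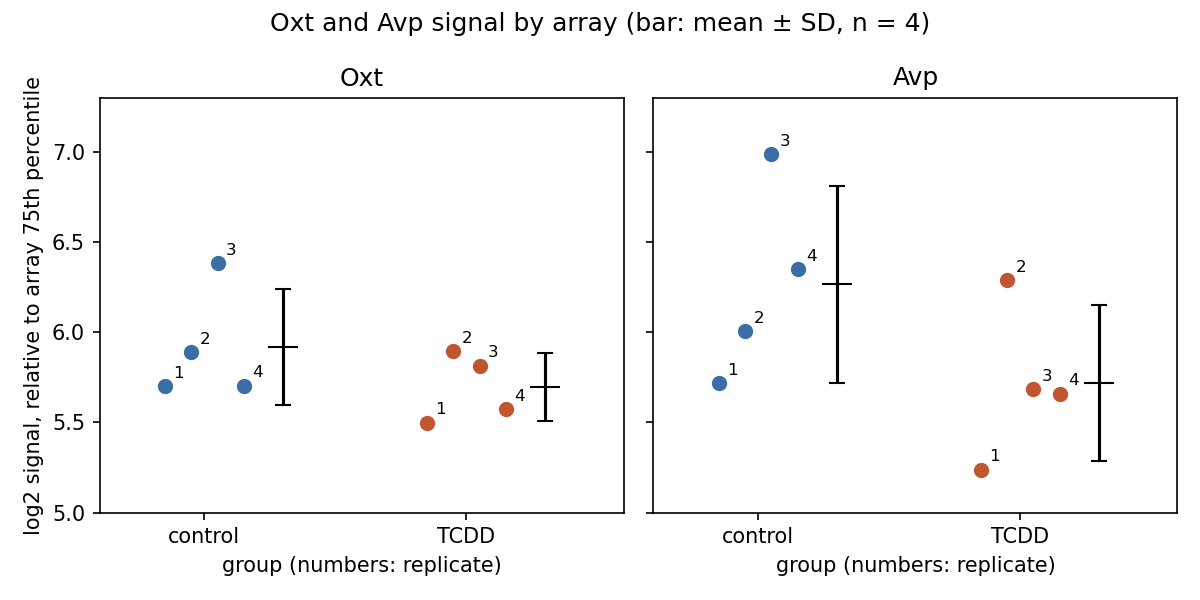
Log2 signal of Oxt and Avp (vertical axis, relative to the 75th percentile of each array) for every control and TCDD array, numbered by replicate, with the mean ± SD beside each group (n = 4). Control replicate 3 is highest and TCDD replicate 1 lowest for both genes, and the groups overlap.

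Control replicate 3 carried much of both differences. Without it the log2 fold change was -0.31 for Avp and -0.07 for Oxt. The position 1 arrays held the lowest value of their group for both genes. Without both of them (an alternative chosen after seeing the data) the values were -0.57 for Avp and -0.23 for Oxt. The spread within groups was large for both genes. The residual SD of Avp, 0.49, was larger than that of 96.3% of the genes tested, and that of Oxt, 0.26, larger than that of 85.6%. The median over all genes was 0.12. From the lowest to the highest dam the signal differed 3.37-fold for Avp and 1.85-fold for Oxt.

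The log2 fold change of Avp was the more negative of the pair, but the difference between the changes did not pass a permutation test. Within an array, Avp minus Oxt was 0.02, 0.12, 0.61 and 0.65 in control replicates 1 to 4 and -0.26, 0.40, -0.13 and 0.08 in TCDD replicates 1 to 4. This quantity compares changes between arrays, not the levels of the genes, since probes differ in brightness. It averaged 0.35 ± 0.33 in control dams and 0.02 ± 0.29 in TCDD dams (SD, n = 4 in each group). The group difference was -0.32 (2-sided exact permutation p = 0.200, where 0.0286 is the smallest the design allows).

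Repeat spots give the spread within an array. The 10 spots of the Avp probe lay scattered over each array, and their SD on the log2 scale ran from 0.027 on control replicate 3 to 0.088 on TCDD replicate 4. The SD between dams was 0.55 in control and 0.43 in TCDD. On control replicate 3 the Avp spots ran from 126597 to 134907 intensity units, above every Avp spot of any other array. On TCDD replicate 1, where 1 spot was marked as an outlier and left out, they ran from 28487 to 34040. The highest and lowest dams were thus far apart at every spot. Oxt has a single spot per array. Probes of like brightness with 5 or more spots, between 11 and 21 of them on an array, had a median spot SD of 0.038 to 0.096, against SDs of Oxt between dams of 0.32 and 0.19. Repeat spots share an RNA extract, labelling, hybridisation, slide position and scaling value, so they leave out error from those steps, and the part of that error in the spread among dams was not tested.

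**Figure D2:**
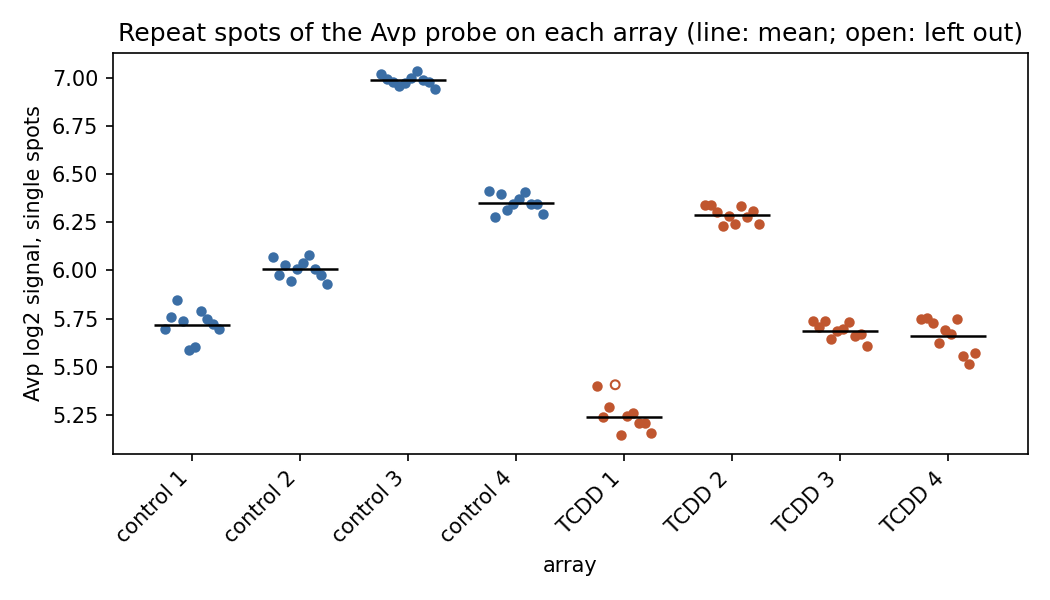
Log2 signal of each of the 10 Avp spots (vertical axis) on each array (horizontal axis), with a line at the mean of the spots used and an open circle for the spot left out. Spots of an array cluster tightly, with control replicate 3 near 6.99 and TCDD replicate 1 near 5.24.

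A second oxytocin probe gave nearly the same pattern as the Oxt probe. It is named TC609866 on the array, so the rule for members did not take it, and it was added because its description there is the oxytocin-neurophysin precursor. It lies at chr3:118194189-118194248 on rn4 and starts at base 2464 of its own transcript record. Its 60 letters match the Oxt start region of the RefSeq assembly GRCr8 in full, from 30 bases before the annotated start to 30 bases inside. The probe was far dimmer than the Oxt probe, with a control mean of 1.65 beside 5.92 on the log2 scale. Its log2 signal was 1.38, 1.65, 2.13 and 1.45 in control replicates 1 to 4, and 1.26, 1.62, 1.65 and 1.36 in TCDD replicates 1 to 4. As for Oxt, control replicate 3 was highest and TCDD replicate 1 lowest. The log2 fold change was -0.18 (SE 0.17, limma adjusted p = 0.784), beside -0.22 for the Oxt probe. The slope of TC609866 on Oxt was 0.980, so the probes moved by nearly equal amounts from array to array.

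Oxt and Avp went up and down together across the dams. Over the 8 arrays Pearson's r was 0.872 (exact permutation p = 0.00625, adjusted over 3 relations 0.00938) and Spearman's rho was 0.810 (exact permutation p = 0.0218, adjusted 0.0327). Avp changed by 1.74 log2 units for each unit of Oxt. Centred on the group means, so that only differences among dams of the same group and slide count, r was 0.840 (exact permutation within groups, p = 0.0226). With 4 arrays a group, no r is given for a single group. The relation rested on the extreme dams. Without control replicate 3 and TCDD replicate 1, the arrays farthest from the median of Oxt, r was 0.425 (exact permutation p = 0.386), and without control replicate 3 alone it was 0.684 (exact permutation p = 0.0937). Without both position 1 arrays it was 0.824 (exact permutation p = 0.0458).

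The relation between the oxytocin probes held without those arrays. For Oxt and TC609866, r was 0.987 (exact permutation p = 0.000149, adjusted 0.000446) and rho 0.929 (exact permutation p = 0.00223, adjusted 0.00670), with r of 0.924 without both extreme arrays (exact permutation p = 0.0194). For Avp and TC609866, r was 0.833 (exact permutation p = 0.0123, adjusted 0.0123) and rho 0.714 (exact permutation p = 0.0576, adjusted 0.0576), with r of 0.266 without both extremes (exact permutation p = 0.571). All genes of an array share its scaling value.

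**Figure D3:**
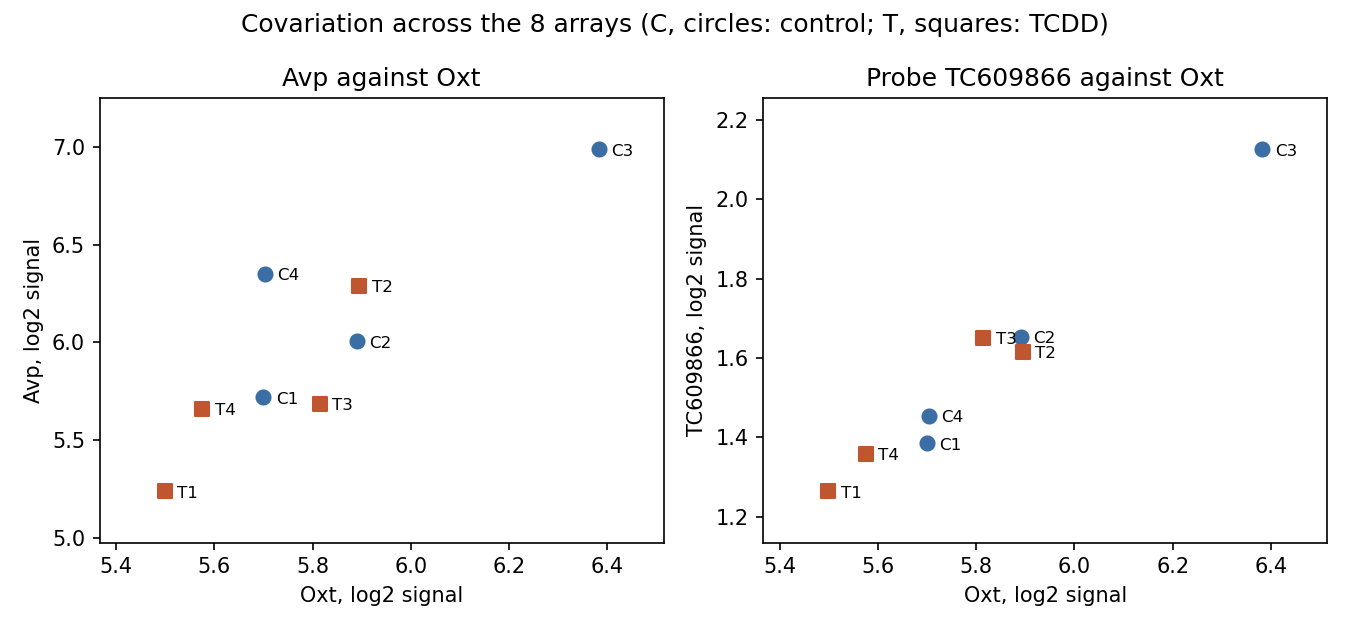
Log2 signals of Avp (left) and of the probe TC609866 (right) against Oxt for each of the 8 arrays, circles for control (C) and squares for TCDD (T), numbered by replicate. The oxytocin probes fall close to a line, and Avp rises with Oxt more loosely, with control replicate 3 at the upper end and TCDD replicate 1 at the lower.

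The likeness of the members to each other was set beside that of all other genes. Of 16570 other genes with a value on every array, 21 had a higher r with Oxt than Avp had, and 29 had a higher r with Avp than Oxt had. With values centred on group means these numbers were 109 and 212. The median r over all genes was 0.0019 with Oxt and -0.012 with Avp. The 5 named genes nearest to Oxt were chosen for their r, which is given as a description over 8 arrays. They were Pou3f2 at 0.928, the actin-binding profilin Pfn1 at 0.927, the sphingolipid enzyme Degs2 at 0.914, the asialoglycoprotein receptor subunit Asgr2 at 0.913 and the protein mannosyltransferase Pomt2 at 0.910. Nearest to Avp were the major vault protein Mvp at 0.958, the actin regulator Cyfip1 at 0.956, the fatty acid hydroxylase Cyp4f1 at 0.940, the flavin monooxygenase Fmo2 at 0.938 and the endoplasmic reticulum protein Serp1 at 0.929. The log2 fold changes of these 10 genes ran from -0.39 for Fmo2 to -0.04 for Pou3f2, with limma adjusted p-values from 0.638 to 0.899.

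Pou3f2, also called Brn2, is a transcription factor that magnocellular neurons need to form. Its log2 signal was -1.95, -1.94, -1.79 and -1.97 in control replicates 1 to 4, and -2.05, -1.89, -1.89 and -1.96 in TCDD replicates 1 to 4. It was highest on control replicate 3 and lowest on TCDD replicate 1, the same extremes as for Oxt and Avp, over a range far narrower than theirs. Pou3f2 was among the genes chosen for their r with Oxt, so shared extremes and a low p with Oxt follow in part from that choice. With Oxt, r was 0.928 (exact permutation p = 0.00104) and rho 0.857 (exact permutation p = 0.0107), and r was 0.707 without both extreme arrays (exact permutation p = 0.132). With Avp, r was 0.799 (exact permutation p = 0.0201) and rho 0.500 (exact permutation p = 0.216), and r was -0.028 without the extremes (exact permutation p = 0.942). Centred on group means, r was 0.937 with Oxt and 0.808 with Avp. Under normexp background correction the r of Pou3f2 with Oxt was 0.557 (exact permutation p = 0.158). Of the 6 measured transcription factors of paraventricular and supraoptic neurons, Pou3f2 included, 3 had a positive r with Oxt and 4 with Avp. The median r of these 6 was 0.197 with Oxt and 0.158 with Avp.

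Pdyn encodes prodynorphin, the opioid precursor that vasopressin neurons store with their hormone. Its log2 signal was 1.72, 1.74, 2.21 and 2.07 in control replicates 1 to 4, and 1.80, 1.92, 1.78 and 1.80 in TCDD replicates 1 to 4. The 3 arrays highest in Pdyn, control replicates 3 and 4 and TCDD replicate 2, were also the 3 highest in Avp. This was not particular to Pdyn. The same 3 arrays were highest for some markers of other cells and tissue, such as Aqp4 for astrocytes, Vim for tanycytes and Ppp1r1b for striatum. Between Pdyn and Avp, r was 0.856 (exact permutation p = 0.00600) and rho 0.548 (exact permutation p = 0.171), and r was 0.817 without both extreme arrays (exact permutation p = 0.0417). Without control replicate 3 alone it was 0.672 (exact permutation p = 0.105). With Oxt, r was 0.665 (exact permutation p = 0.0759) and rho 0.357 (exact permutation p = 0.389), and r was -0.040 without the extremes (exact permutation p = 0.933). Pdyn is 1 of 12 listed co-transmitters of magnocellular or paraventricular neurons. Of these 12 genes, 5 had a positive r with Avp, and the median was -0.199. Gal, the galanin gene on the same list, had an r of -0.677 with Avp (exact permutation p = 0.0694).

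**Figure D4:**
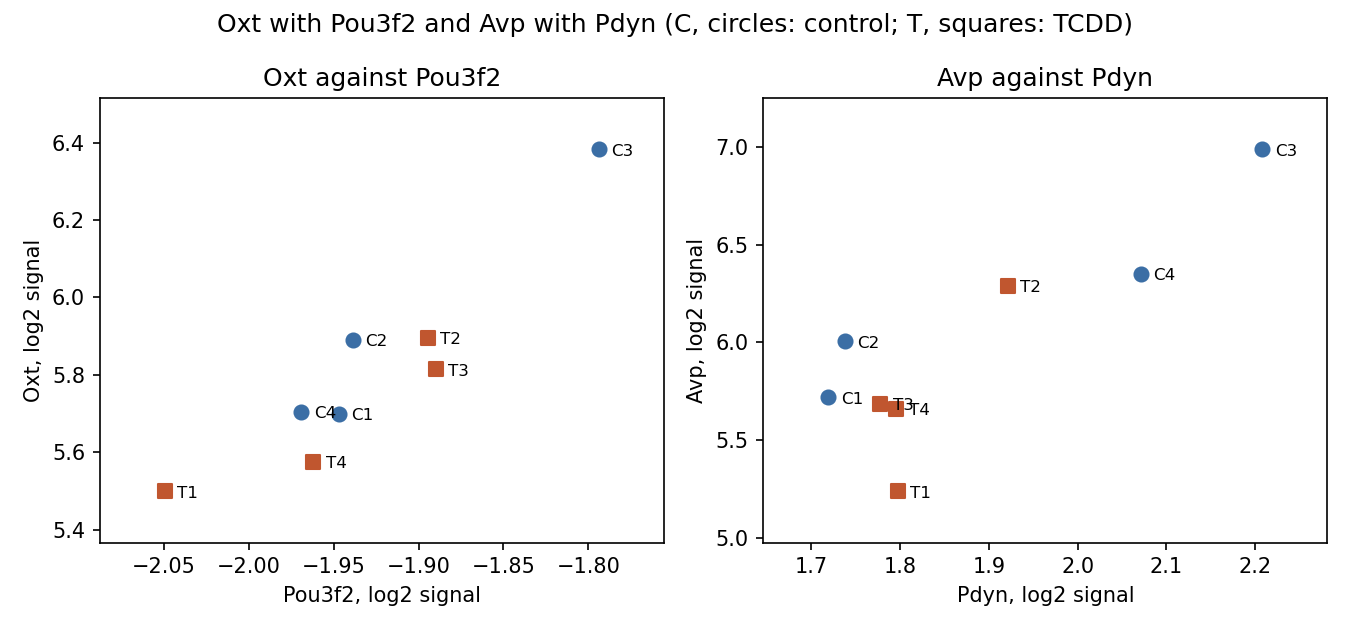
Log2 signals of Oxt against Pou3f2 (left) and of Avp against Pdyn (right) on each of the 8 arrays, circles for control (C) and squares for TCDD (T), numbered by replicate. Control replicate 3 is at the top right of both plots, and TCDD replicate 1 is at the lower left for Pou3f2.

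These relations belong to a family of 200, of Oxt and of Avp with each of 100 measured genes of the pathway and marker lists. In that family 5 had an unadjusted p under 0.05, a smaller share of the 200 than the 0.05 that such a threshold gives by chance. After adjustment 0 passed, the smallest adjusted p being 0.208 for Oxt and Pou3f2. The adjusted p of Avp with Pdyn was 0.600. The other relations at that level were negative and both with Oxt. For the neuropeptide galanin, Gal, r was -0.707 (exact permutation p = 0.0478, adjusted 0.937; rho -0.619, exact permutation p = 0.115; r -0.560 without both extremes). For the granule protein chromogranin B, Chgb, r was -0.729 (exact permutation p = 0.0467, adjusted 0.937; rho -0.357, exact permutation p = 0.389; r -0.711 without both extremes).

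Genes of the same pathway did not pass the test between TCDD and control dams, and they are given here by role. Among receptors, Avpr1a, the vasopressin receptor of brain and vessels, had a log2 fold change of 0.03 (SE 0.084). Of the 4 control and 4 TCDD arrays, the oxytocin receptor gene Oxtr exceeded background on 0 and 1, the kidney-type receptor Avpr2 on 0 and 2, and the pituitary-type receptor Avpr1b on 0 and 0, so no fold is given for these 3. Lnpep, the oxytocinase that breaks down both hormones, stood at 0.08 (SE 0.045), with all 4 TCDD arrays above all 4 controls, as groups did not overlap in 7.05% of genes. Cd38, an enzyme needed for oxytocin release, stood at 0.06 (SE 0.099). Adjusted p-values of Avpr1a, Lnpep and Cd38 ran from 0.610 to 0.958 (limma).

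Of 12 co-transmitters found in magnocellular or paraventricular neurons, all measured, 6 were higher and 6 lower in TCDD dams and 0 passed (limma). The median log2 fold change was -0.01, beside 0.0042 over all genes. At an unadjusted p under 0.05, as 7.95% of genes were in the higher and 2.82% in the lower direction, stood Trh, thyrotropin-releasing hormone, at 0.29 (SE 0.12) and Apln, apelin, which opposes vasopressin release, at -0.15 (SE 0.060). Their adjusted p-values were 0.444 and 0.431. Pdyn stood at -0.11 (SE 0.12) and Gal at -0.03 (SE 0.097).

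Of 10 prohormone-processing and granule genes, all measured, 5 were higher and 5 lower, with a median of 0.0011, and 0 passed. The largest difference was that of Chga, chromogranin A, which helps form the granule. Its log2 signal was 1.96, 2.19, 2.24 and 2.20 in control replicates 1 to 4, and 2.49, 2.35, 2.50 and 2.49 in TCDD replicates 1 to 4. All TCDD arrays lay above all controls, as groups did not overlap, in either direction, in 7.05% of genes. The log2 fold change was 0.31, with an SE of 0.074 and a limma adjusted p of 0.188. Chgb stood at 0.20 (SE 0.093, limma adjusted p = 0.492).

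Of 8 transcription factors of paraventricular and supraoptic neurons 6 were measured, 4 higher and 2 lower, with a median of 0.15, and 0 passed. Arnt2, the partner with which SIM1 specifies these neurons, stood at 0.15 (SE 0.055, limma adjusted p = 0.368). Otp and Esr2, an oestrogen receptor found in oxytocin neurons, were not measured. Of 7 genes linked to the response of Avp to osmotic stress, 6 were measured, 5 higher and 1 lower, with a median of 0.14, and 0 passed. The stress-induced factor Atf3 stood at 0.51 (SE 0.15, limma adjusted p = 0.279). Of 8 suprachiasmatic genes 6 were measured, 2 higher and 4 lower, with a median of -0.09, and 0 passed. Rorb, a clock-linked nuclear receptor, stood at 0.26 (SE 0.11, limma adjusted p = 0.426).

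Other hypothalamic neuropeptides lay on both sides of 0. Of 12 listed, 11 were measured, 6 higher and 5 lower, with a median of 0.03, and 0 passed (limma). Sst, which encodes somatostatin, stood at 0.43 (SE 0.12, limma adjusted p = 0.237). In the AhR list 1 of 7 genes was measured, the quinone reductase Nqo1, at 0.04 (SE 0.097, limma adjusted p = 0.926). Ahr exceeded background on 1 array of either group, and Cyp1a1, the classic AhR target, on 0 control and 2 TCDD arrays.

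**Figure D5:**
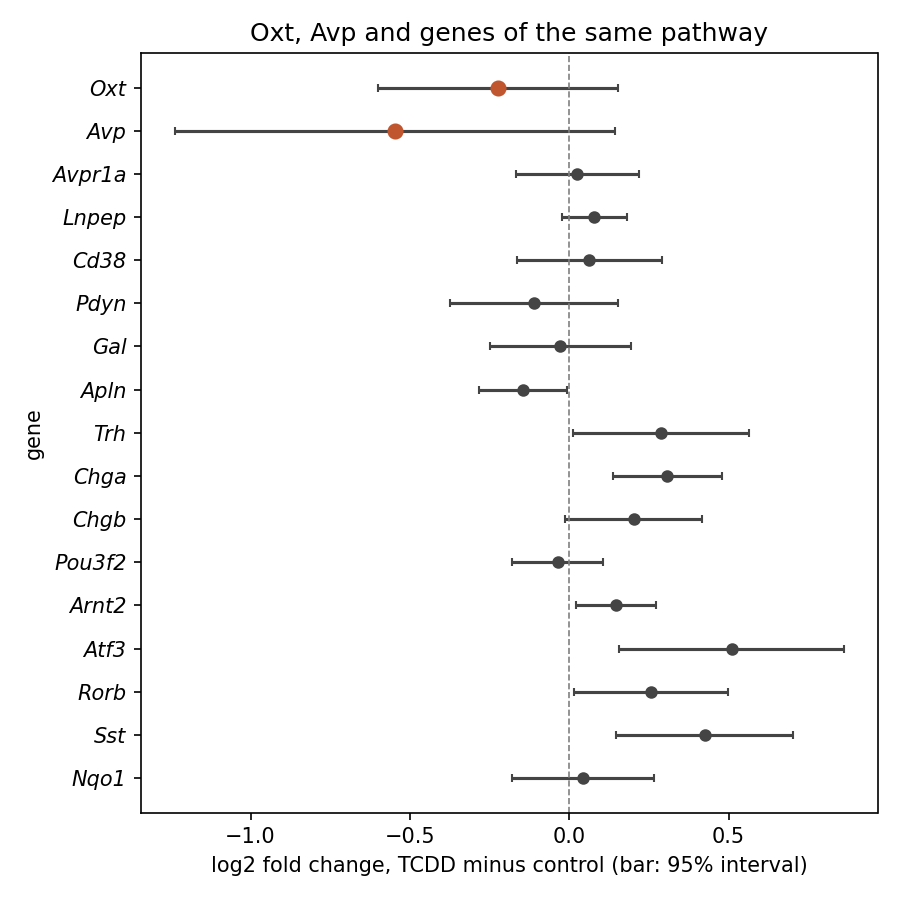
Log2 fold change, TCDD minus control (horizontal axis), with its 95% interval for Oxt and Avp (coloured points) and for named genes of the pathway lists (n = 4 arrays per group). The intervals of Oxt and Avp both include 0. The plotted genes are those whose log2 fold change the paragraphs give. Of the same lists, Agrp (-0.28), Kiss1 (-0.25) and Grp (-0.22), not plotted, also lie below -0.2. Nr3c1 (0.46), Six6 (0.36), Fos (0.32), Ghrh (0.32), Rora (0.28), Rasd1 (0.24), Hcrt (0.23) and Gnrh1 (0.22), not plotted, lie above 0.2.

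Markers of neighbouring tissue and of other cells were set beside the pair; their part in the levels of Oxt and Avp was not tested. Of 9 marker lists, 0 had their highest mean level on control replicate 3, where Oxt and Avp were highest. On TCDD replicate 1, where they were lowest, 1 list was at its lowest, that of pituicytes and tanycytes, at -1.77 in a range from -1.77 to -0.51. Across all arrays the mean levels of the lists had an r with Avp from -0.528 for neurons to 0.526 for pituicytes and tanycytes. With Oxt, r ran from -0.350 for red blood cells to 0.532 for oligodendrocytes. Astrocyte markers, with an r of 0.479 with Avp, were highest on the same 3 arrays as Avp, control replicates 3 and 4 and TCDD replicate 2. Neuron markers (6 of 6 measured) ranged from 1.37 to 1.47 in control and from 1.40 to 1.58 in TCDD arrays, and thalamus markers (6 of 7) from -1.55 to -0.90 and from -1.25 to -0.81. Anterior pituitary markers (3 of 8) ranged from -4.48 to 1.93 and from -2.40 to 2.07, and the 3 measured were higher on average in TCDD dams, Cga by 1.45 (SE 2.20), Tshb by 2.46 (SE 1.93) and Lhb by 0.07 (SE 0.27) on the log2 scale, while 0 passed (limma). Prl and Gh1, which encode prolactin and growth hormone, exceeded background on 1 control and 3 TCDD arrays, and Fshb, Pou1f1 and Ghrhr on 0 arrays. Red blood cell markers (5 of 5) ranged from 1.89 to 3.56 and from 2.76 to 3.84. All 5 were higher in TCDD dams and 4 had an unadjusted p under 0.05, as 7.95% of all genes did in that direction, namely Hbb at 0.90, Hbb-b1 at 1.08, Hba-a2 at 0.69 and Alas2 at 1.49 on the log2 scale, while 0 passed (limma adjusted p from 0.349).

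Genes next to the pair on chromosome 3 lay on both sides of 0 and did not pass. Within 100 kb of the Oxt and Avp probes on rn4, probes for 6 other genes were measured, Ptpra, Mrps26, Ubox5, Fastkd5-ps1, Prosapip1 and Ddrgk1. Their log2 fold changes ran from -0.12 to 0.33, with limma adjusted p-values from 0.642 to 0.963.

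The regions upstream of both genes are shown because the transcripts moved together across dams and because AhR and nuclear receptors bind short motifs there in other genes. The sequences are the 250 bases before the annotated start, from RefSeq on GRCr8, which held both genes. Capitals mark every match, on either strand, to GCGTG, the core that AhR binds with its partner, and to TGACC, the core of nuclear receptor elements.
Oxt upstream, chr3:138235504-138235753, plus strand: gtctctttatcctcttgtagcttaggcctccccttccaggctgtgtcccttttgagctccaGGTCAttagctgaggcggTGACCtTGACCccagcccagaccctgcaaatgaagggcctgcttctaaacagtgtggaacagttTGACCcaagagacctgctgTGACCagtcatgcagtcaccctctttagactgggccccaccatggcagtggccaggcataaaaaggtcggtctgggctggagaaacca
Avp upstream, chr3:138248523-138248772, minus strand: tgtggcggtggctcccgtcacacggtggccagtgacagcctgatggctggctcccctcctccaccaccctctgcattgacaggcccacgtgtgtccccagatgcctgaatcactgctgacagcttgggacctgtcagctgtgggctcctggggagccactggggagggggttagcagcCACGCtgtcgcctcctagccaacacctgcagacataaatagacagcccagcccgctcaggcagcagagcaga
The windows held different motifs. TGACC had 5 matches upstream of Oxt, between 189 and 84 bases before the start, and 0 upstream of Avp. Of 27457 windows of that length, 35.2% held a match and 0.0473% held 5 or more. GCGTG had 0 matches upstream of Oxt and 1 upstream of Avp, from 72 to 68 bases before the start, and 27.2% of windows held a match. The E-box CANNTG, bound by clock and other basic helix-loop-helix factors, had 1 match for Oxt and 4 for Avp, 1 of the latter being CACGTG. Of all windows, 65.2% held a match and 3.09% held 4 or more. These are matches of letters, and no factor's binding was measured in the series. The last 30 bases of the Oxt window are those that the probe TC609866 covers, and they hold none of the matches.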

How the data were processed

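Hypothalamic RNA of 4 control and 4 TCDD-exposed dams was hybridised to 1-colour Agilent rat arrays, 1 array per dam. The deposited files give linear spot intensities from Agilent Feature Extraction 10.7.1.1, with probe positions on rn4, per the file headers. That software subtracted background and set the marks for outlier, dim and saturated spots, per the file headers. A table of linear intensities that the authors deposited, with a median of 65.1 in every column and its processing steps not stated, served as an alternative.

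Each spot's processed signal was divided by the array's 75th percentile over non-control spots and taken to log2. Spots marked as outliers were left out, and spots of a probe were averaged. A probe counted as above background on an array when 50% or more of its spots did, and it entered the test when this held for all 4 arrays of either group. The brightest such probe stood for its gene. That left 16574 genes. The groups were compared by limma 3.58.1 in R 4.3.3, 2-sided and with no covariate. P-values were adjusted by Benjamini-Hochberg over all genes, at a threshold of 0.05. Single values and correlations had exact permutation tests, in Python 3.11.15. The gene test was tested on simulated data.

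The members and lists were chosen with earlier results of these data known. Named genes were the members, measured receptor-list genes, list members at an unadjusted p under 0.05 (or the 2 with the smallest p), and the 5 symbols nearest to each member by r. The probe TC609866 and the genes Pdyn, Gal and Chgb were named after their values were seen, as were the neighbours on the chromosome and the markers of tissue. Alternatives concerned background, scaling, the authors' table, the filter, probes, the replicate block and arrays left out. The number of arrays limits the precision.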

Additional observations from a re-analysis of the deposited data

Results flagged for a closer look

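Among 32 named items, 64 groups of 4 arrays were examined for an array far from the other 3, meaning a gap above 0.829 of the group's range. Chance gives about 1 such group in 20, and 7 were found, none of them for Oxt, Avp, TC609866 or the difference of Avp and Oxt. TCDD replicate 2 was the array in 5 of them. It was the highest TCDD array for Pdyn (gap 0.864 of the range, log2 signal 1.92 against 1.80 for the next), for Lnpep (0.960, -1.48 against -1.54) and for Degs2 (0.833, -1.28 against -1.46). It was the lowest TCDD array for Gal (0.860, 3.58 against 3.82) and for Chga (0.940, 2.35 against 2.49). On the same array Avp, at 6.29, was the highest of the TCDD dams. Control replicate 2 was the lowest control for Cd38 (0.965, -3.90 against -3.54). Control replicate 4 was the highest control for Alas2 (0.865, 0.24 against -1.72).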

How the results depend on the processing

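The log2 fold changes of Oxt and Avp kept their negative sign and did not pass in any of the 17 alternatives, from -0.30 to -0.07 for Oxt (limma adjusted p from 0.472 to 0.917) and from -0.74 to -0.31 for Avp (0.425 to 0.828). The difference of Avp and Oxt kept its sign and did not pass in 16 alternatives (-0.45 to -0.22, exact permutation p from 0.114 to 0.375). The r of Oxt and Avp ran from 0.684 to 0.960 with single arrays left out (exact permutation p from 0.000794 to 0.0937). With the replicate block it was 0.953, where the smallest possible exact permutation p is 0.125. Replicate numbers are slide positions. Deviations of same-numbered control and TCDD arrays correlated at 0.228, -0.0031, -0.046 and 0.104 for numbers 1 to 4. Only at number 1 was this above the highest r of both arrays with differently numbered arrays of the other group (0.078 for control, 0.192 for TCDD). The count of genes past limma's threshold was 4, and from 0 to 7 with single arrays left out. It was 0 without control replicate 2 or 4 or TCDD replicate 2 or 3 (1390, 2022, 1797 and 1409 genes at an unadjusted p under 0.05), 1 without control replicate 1 or TCDD replicate 4, and 7 without control replicate 3. It was 20 with normexp, 27 with median scaling, 2 without the pair of arrays at position 1, 0 with no filter (2032 at an unadjusted p under 0.05) and 0 with the replicate block (2139). The cause of these shifts was not tested. Leaving out the position 1 arrays, and a scaling percentile taken over probes, were added after the data were seen. The latter gave -0.24 for Oxt, -0.56 for Avp and an r of 0.875.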

Other observations

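The likeness of Pou3f2 to Oxt moved more than that of Avp to Oxt under normexp. Under quantile normalization r with Oxt went from 0.928 to 0.885 for Pou3f2 and from 0.872 to 0.817 for Avp. Under the 75th percentile scaling 2 of 16570 genes had a higher r with Oxt than Pou3f2 had. With quantile normalization there were 12, with median scaling 9, and with normexp 418, where its r was 0.557. For Avp, the number of genes with a higher r to Oxt was 21 under the 75th percentile scaling, and 52, 26 and 17 under the same alternatives. For Pdyn, the number of genes with a higher r to Avp was 45 under the 75th percentile scaling, and 34, 34 and 77 under the same alternatives.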
